A study of Zea mays with 4 samples.

Results

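TCRR1 (Zm00001d050200, named transfer cell response regulator1 in the deposited feature table) and TCRR2 (Zm00001d032381, listed there without a name) are 2 of the 45953 maize features counted. Both were chosen by identifier, and their unique molecular identifiers (UMIs, one per captured transcript) were read in every barcode of the 4 deposited matrices. In the 17212 cells kept, TCRR1 had 5545 UMIs and TCRR2 had 11301. Their levels were compared between cells with and without UMIs of BETL9 (Zm00001d041822), which encodes a protein of the basal endosperm transfer layer (BETL), and of MRP1 (Zm00001d010889), the MYB-related transcription factor known as a regulator of transfer cell genes.

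Response regulators are the last step of the two-component relay. In this relay, a histidine kinase, such as a cytokinin receptor, passes a phosphate through a histidine-containing phosphotransfer protein to a response regulator. TCRR1 and TCRR2 belong to the type-A class of short regulators, which lack a DNA-binding domain, and in maize they are known from the transfer cells at the base of the endosperm, where sugars enter the kernel. TCRR1 is on the study's list of published yeast one-hybrid targets of MRP1, and TCRR2 is not on that list.

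The samples were endosperm protoplasts of wild-type B73 plants, with no treatment: 1 library from kernels at 6 days after pollination (DAP) and 3 replicate libraries from kernels at 7 DAP. Each library came from the pooled endosperms of many kernels, and cells that do not release protoplasts are not represented. The study calls the 7 DAP libraries biological replicates, but the labels do not say which plants or harvests they came from. The p-values therefore measure only how far differences between classes of cells varied among these libraries. With 1 library at 6 DAP, no test between ages was possible.

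The kept cells held 7117959 UMIs at 6 DAP and between 25574646 and 35365891 at 7 DAP, and the median cell had 1814 UMIs at 6 DAP against 3979 to 5659 at 7 DAP. Any pair of libraries shared 3 to 7 kept barcodes. The 7 DAP libraries differed from each other by more than sampling noise, with a chi-square per gene of 3.38 to 8.85.

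The first question was whether TCRR1 and TCRR2 lay in the cells with BETL9 and MRP1. Cells were put in 4 classes by whether they held at least 1 UMI of both genes, of BETL9 only, of MRP1 only or of neither, and UMIs were summed per class and library and given as CPM, the number of UMIs of a gene per 1000000 UMIs of that sum. In the cells with both BETL9 and MRP1, TCRR1 stood at 496, 447 and 372 CPM in 7 DAP replicates 1, 2 and 3 (438 ± 62.0, SD, n = 3). Among those with neither, it stood at 3.21, 2.33 and 2.14 CPM (2.56 ± 0.57). Within the libraries, TCRR1 was higher in the class with both genes by 154, 192 and 174 times.

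TCRR2 followed the same order with a smaller contrast. It stood at 669, 673 and 665 CPM in the cells with BETL9 and MRP1 (669 ± 3.95, SD, n = 3) and at 13.6, 11.2 and 11.3 CPM in the cells with neither (12.1 ± 1.36). Within the libraries the class with both genes was higher by 49.1, 60.0 and 58.7 times. The log2 contrast of TCRR1 exceeded that of TCRR2 by 1.65, 1.68 and 1.57, in 3 of 3 libraries. This difference between the genes has no test of its own.

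In the fit across genes, TCRR1 was higher in the cells with both genes than in the cells with neither by 7.96 ± 0.13 on the log2 scale (SE; edgeR's quasi-likelihood test with Benjamini-Hochberg adjustment over 15178 genes, adjusted p = 8.77e-29). The value for TCRR2 was 6.34 ± 0.15 (edgeR, adjusted p = 1.21e-25). In this comparison 27.7% of all genes tested passed in the same direction, so passing the test says little by itself, and the sizes of the differences ranked 25 and 88 among all genes. The classes also differed in depth, with a median of 9352, 12154 and 13130 UMIs per cell in the class with both genes against 3796, 5290 and 5206 in the class with neither. With every cell thinned to 1000 UMIs and classes set again, the log2 differences were 6.03 for TCRR1 and 4.77 for TCRR2, and both genes still passed.

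**Figure D1:**
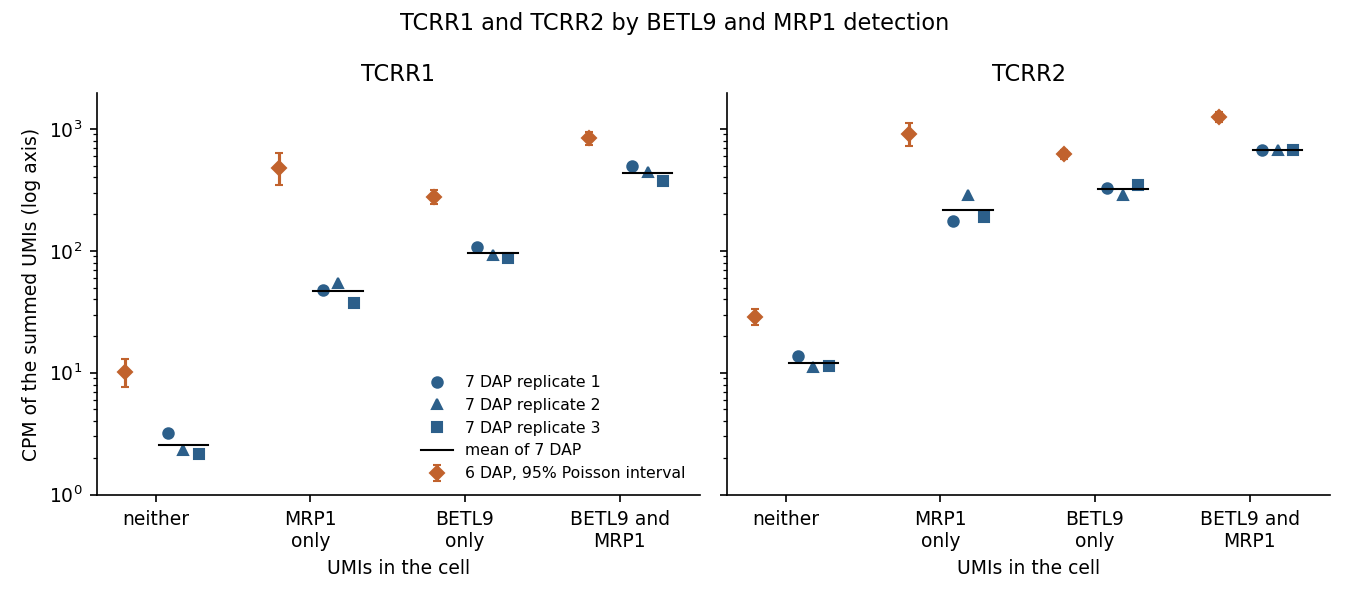
CPM of TCRR1 (left) and TCRR2 (right) on a log axis in the 4 classes of cells set by UMIs of BETL9 and MRP1; blue symbols are the 3 libraries of 7 DAP, bars their mean, and orange diamonds the 6 DAP library with its 95% Poisson interval. At 7 DAP both genes rise from the class with neither (2.56 and 12.1 CPM) to the class with both (438 and 669 CPM), and the 6 DAP point lies above the 7 DAP points in every class.

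Cells with only one of the marker genes lay between these extremes. Cells with BETL9 only had TCRR1 at 107, 92.2 and 86.5 CPM and TCRR2 at 326, 289 and 344 CPM. Against the cells with neither, this was 5.57 ± 0.13 on the log2 scale for TCRR1 and 5.08 ± 0.14 for TCRR2 (SE; edgeR's quasi-likelihood test, adjusted p = 3.89e-25 and 3.64e-23), where 21.1% of all genes passed in that direction.

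Where MRP1 alone was found, TCRR1 stood at 47.7, 54.4 and 37.1 CPM and TCRR2 at 174, 287 and 188 CPM. Against the cells with neither, the log2 differences were 4.41 ± 0.23 and 4.40 ± 0.17 (SE; edgeR's quasi-likelihood test, adjusted p = 9.92e-16 and 6.11e-19), where 11.3% of all genes passed in that direction. TCRR1 minus TCRR2 was 0.22, -0.13 and 0.06 in the 3 libraries, but 1.06, 1.39 and 0.99 after thinning to 1000 UMIs per cell. For the BETL9 only class the difference was 0.48, 0.62 and 0.41. Few cells carried these values: the MRP1 only class held 58, 89 and 75 cells with 17, 49 and 26 TCRR1 UMIs. Restricting BETL9 positive cells to those with at least 1000 CPM of BETL9 moved the MRP1 only difference of TCRR1 to 5.26.

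The cells with BETL9 differed further by whether MRP1 was also found. TCRR1 was higher in the cells with both genes than in the cells with BETL9 only by 2.39 ± 0.10 and TCRR2 by 1.26 ± 0.12 on the log2 scale (SE; edgeR's quasi-likelihood test, adjusted p = 2.36e-17 and 2.78e-09), where 9.11% of all genes passed in that direction. Depth differed here as well, the cells with BETL9 only having a median of 4071, 6537 and 7937 UMIs. After thinning to 1000 UMIs per cell the differences were 1.45 and 0.83, and with BETL9 at 1000 CPM or more they were 1.70 and 0.79. Both genes passed in each of these fits.

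Most of each gene's UMIs lay in a small share of the cells. At 7 DAP the cells with both BETL9 and MRP1 held 8.46%, 9.02% and 11.01% of all UMIs, but 73.7%, 77.1% and 80.0% of the TCRR1 UMIs and 53.6%, 58.2% and 62.5% of the TCRR2 UMIs. The cells with neither held 79.2%, 79.0% and 77.8% of all UMIs, with 4.47%, 3.52% and 3.25% of the TCRR1 UMIs and 10.2%, 8.49% and 7.53% of the TCRR2 UMIs. TCRR2 was thus spread more widely than TCRR1 in each library.

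Counted as cells rather than UMIs, TCRR1 was found in 70.0%, 71.5% and 75% of the cells with BETL9 and MRP1 and in 1.10%, 1.27% and 0.78% of the cells with neither. TCRR2 was found in 86.8%, 86.9% and 93.9% and in 3.53%, 3.75% and 3.09%. These shares depend on depth, and after thinning they were 37.5%, 32.1% and 40.0% for TCRR1 and 58.3%, 37.5% and 42.9% for TCRR2 in the class with both genes. Over whole libraries, cells were also ranked for each gene by its own UMIs. The top 1% of cells so ranked held 55.8%, 53.9% and 45.6% of the TCRR1 UMIs and 38.1%, 36.5% and 31.9% of the TCRR2 UMIs. Within the class with both marker genes, the median cell had 246, 211 and 232 CPM of TCRR1, below the summed level of the class. The single highest cell, in 7 DAP replicate 2, had 168 TCRR2 UMIs and 70 TCRR1 UMIs among 47771, with 38 of MRP1 and 31 of BETL9.

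Levels were then set out along the amount of MRP1 in cells with a BETL9 UMI. TCRR1 at 7 DAP went from 107, 92.2 and 86.5 CPM in cells without MRP1 to 273, 171 and 180 CPM below 200 CPM of MRP1, to 384, 513 and 355 CPM from 200 to under 500, and to 1055, 828 and 719 CPM at 500 or more. TCRR2 went from 326, 289 and 344 CPM to 440, 445 and 481, to 623, 639 and 750, and to 1152, 1084 and 824 CPM. Every step was upward in each of the 3 libraries for both genes. TCRR1 covered the wider range, and the number of TCRR1 UMIs per TCRR2 UMI was 0.33, 0.32 and 0.25 without MRP1 and 0.92, 0.76 and 0.87 at 500 CPM or more. The middle bins were less regular, with 0.62, 0.38 and 0.37 and then 0.62, 0.80 and 0.47. Because capture of the 2 transcripts was not compared, the ratio is read only between groups of cells.

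BETL9 and depth moved along the same bins. BETL9 stood at 1429, 1325 and 1439 CPM in the cells without MRP1 and at 2763, 2250 and 2643 CPM in those with 500 CPM or more. The median cell had 11193, 13251 and 14895 UMIs in the lowest bin with MRP1 against 7660, 10640 and 10855 in the highest. Their part in the rise was not tested.

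**Figure D2:**
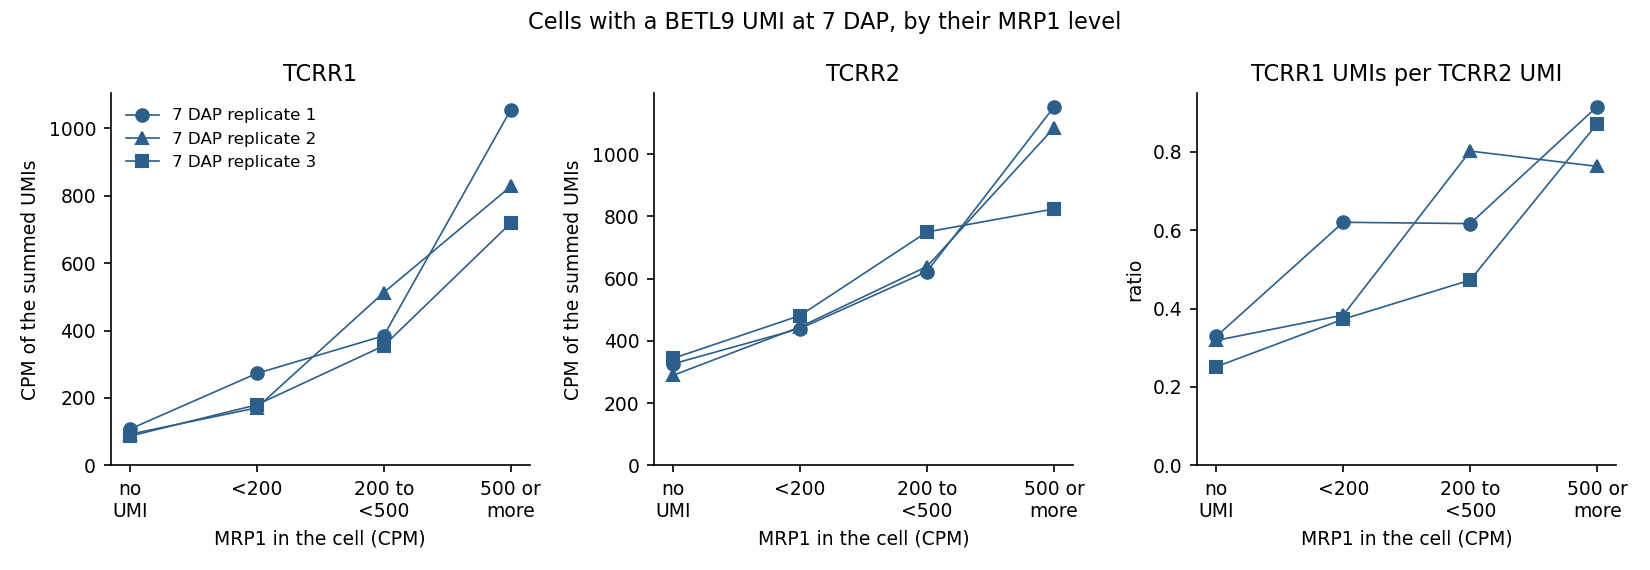
CPM of TCRR1 (left) and TCRR2 (middle) and the number of TCRR1 UMIs per TCRR2 UMI (right) in cells with a BETL9 UMI at 7 DAP, by the MRP1 level of the cell, one line per library. TCRR1 goes from between 86.5 and 107 CPM without MRP1 to between 719 and 1055 CPM at 500 CPM of MRP1 or more, and the ratio from between 0.25 and 0.33 to between 0.76 and 0.92.

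Along BETL9 itself, TCRR1 at 7 DAP stood at 3.98, 3.95 and 3.08 CPM in cells without BETL9, at 137, 145 and 118 CPM in cells under 1000 CPM of BETL9 and at 428, 435 and 372 CPM from 1000 to under 10000. TCRR2 stood at 16.4, 19.8 and 16.1 CPM, then at 310, 345 and 422 CPM, then at 665, 662 and 617 CPM. Both genes were thus higher at each of these steps in 3 of 3 libraries. Only 13, 11 and 4 cells reached 10000 CPM of BETL9, and there TCRR1 spread from 185 to 884 CPM and TCRR2 from 383 to 733 CPM.

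To form groups of cells without using BETL9 or MRP1, cells were clustered on 2000 variable genes after 63 genes, among them TCRR1, TCRR2, BETL9, MRP1 and the cytokinin genes, had been left out of the clustering. Of 20 clusters, clusters 0 and 17 were called BETL-like from their markers, with 2621 and 108 cells and UMIs of 12 of 12 BETL markers in each. BETL9 and MRP1 are among those 12 markers, so the name, unlike the grouping, used them. Of the cells of cluster 17, 81 came from 7 DAP replicate 1, and TCRR1 stood in the cluster at 44.9, 162 and 31.3 CPM. These levels rest on 6, 3 and 1 TCRR1 UMIs in 81, 10 and 9 cells. BETL-like cells were 15.1% to 15.6% of the cells at 7 DAP and held 95.8%, 96.9% and 98% of the TCRR1 UMIs and 92.4%, 95.1% and 96.3% of the TCRR2 UMIs. At 6 DAP they held 96.7% and 93.7%.

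In the BETL-like cells, TCRR1 stood at 283, 239 and 227 CPM (250 ± 29.7, SD, n = 3) and TCRR2 at 507, 468 and 509 CPM (494 ± 23.2). In all other cells together, TCRR1 stood at 2.95, 2.08 and 1.35 CPM and TCRR2 at 9.97, 6.53 and 5.58 CPM. No test was made of a cluster against the rest. A UMI of TCRR1 was found in 38.5%, 39.6% and 45.9% of BETL-like cells and one of TCRR2 in 64.6%, 70.6% and 78.0%, at a median depth of 5703 to 9638 UMIs. As a background, cluster 1, called AL-like (aleurone) from 3 detected markers, showed TCRR1 in 0.33%, 1.23% and 0.84% of cells and TCRR2 in 0.83%, 1.70% and 1.52%, at medians of 5372, 7565 and 7427 UMIs.

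The classes set by BETL9 and MRP1 differed inside the BETL-like cells as well. There TCRR1 stood at 515, 449 and 377 CPM in the cells with both genes and at 37.1, 13.7 and 42.4 CPM in the cells with neither. TCRR2 stood at 693, 676 and 675 CPM and at 184, 182 and 240 CPM. In the cells with neither there were 0.20, 0.08 and 0.18 TCRR1 UMIs per TCRR2 UMI, against 0.74, 0.66 and 0.56 in those with both. With every cell thinned to 1000 UMIs, so that more cells lose their BETL9 and MRP1 UMIs, the BETL-like cells with neither had 93.1, 95.1 and 102 CPM of TCRR1 and 345, 326 and 357 CPM of TCRR2. Outside the BETL-like clusters, the cells with neither BETL9 nor MRP1 had 1.95, 1.86 and 0.74 CPM of TCRR1 and 7.27, 4.25 and 3.36 CPM of TCRR2.

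**Figure D3:**
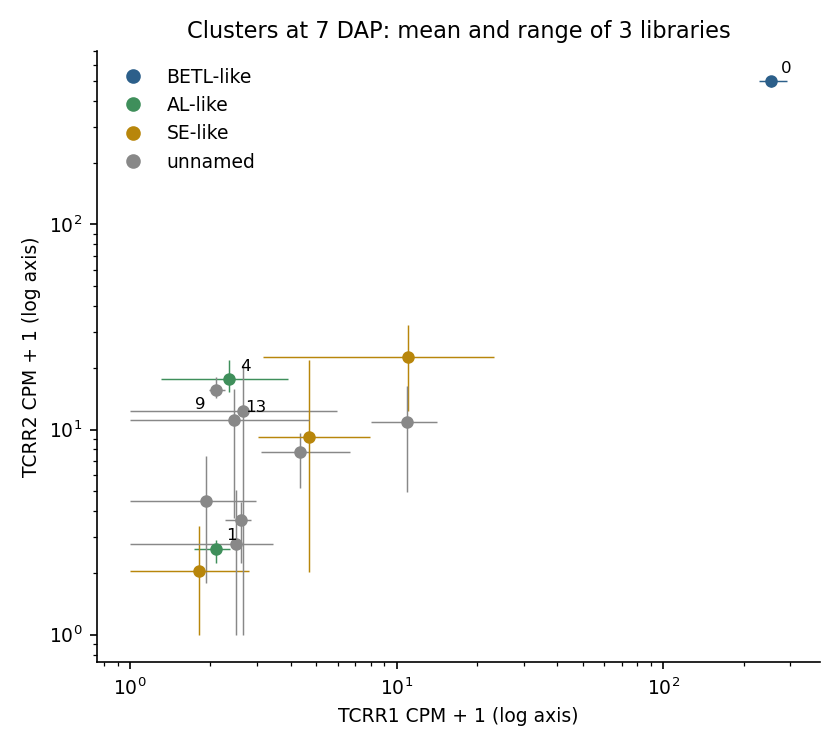
TCRR2 against TCRR1 in each of the 14 clusters with at least 50 cells in every 7 DAP library, as CPM plus 1 on log axes; points are means and lines the range of the 3 libraries, coloured by the name the markers gave. BETL-like cluster 0 lies apart at the upper right, and clusters 4 and 9 have TCRR2 at 13.3 to 20.9 CPM with TCRR1 at 0.30 to 2.90 CPM.

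Outside the BETL-like clusters, SE-like (starchy endosperm) cluster 7 had TCRR2 at 31.5, 21.6 and 11.4 CPM with TCRR1 at 22.2, 2.16 and 5.68 CPM and BETL9 at 96.3, 41.1 and 19.9 CPM. Clusters 4 and 9, singled out after their values had been seen, had TCRR2 with little TCRR1 in each 7 DAP library. In AL-like cluster 4, TCRR2 stood at 20.9, 14.8 and 14.2 CPM and TCRR1 at 0.87, 2.90 and 0.30 CPM. In cluster 9, which has no name and is led by histone genes, TCRR2 stood at 17.1, 13.3 and 13.3 CPM and TCRR1 at 0.98, 1.05 and 1.27 CPM. BETL9 was near its level in AL-like cluster 1. It stood at 10.01, 2.90 and 1.21 CPM in cluster 4, at 8.80, 1.75 and 1.90 CPM in cluster 9 and at 10.9, 2.74 and 3.32 CPM in cluster 1, where TCRR2 was at 1.24, 1.88 and 1.76 CPM. MRP1 was above its level in cluster 1 in each library, with 4 to 29 UMIs behind each value. It stood at 2.18, 2.61 and 4.52 CPM in cluster 4 and at 1.96, 3.15 and 9.17 CPM in cluster 9. In cluster 1 MRP1 was at 1.73, 0.68 and 0.98 CPM.

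A few cells made up much of the TCRR2 signal outside the BETL-like clusters. At 7 DAP, 18 cells outside the BETL-like clusters (7, 4 and 7 per library) had at least 5 TCRR2 UMIs, 154 in all, which was 24.3%, 25.3% and 41.1% of the TCRR2 UMIs outside. Of these cells, 13 belonged to clusters 4 and 9, 3 had a TCRR1 UMI, 5 had BETL9 and 7 had MRP1, and 7 had none of the 3 genes. By comparison, 448 of the 642 BETL-like cells with at least 5 TCRR2 UMIs had TCRR1. No cell outside the BETL-like clusters had 5 or more TCRR1 UMIs, against 317 BETL-like cells.

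The 18 cells were not free of other BETL transcripts. The summed level of the other 10 BETL markers had a median of 12978, 16561 and 14591 CPM in them, against 191, 129 and 82.4 CPM in the other cells outside and 92482, 90504 and 99476 CPM in the BETL-like cells. Their median depth was 12403, 19420 and 11103 UMIs. Whether such cells hold transcripts of more than one cell was not tested. Without them, TCRR2 stood at 11.5, 9.37 and 3.98 CPM in cluster 4 and at 11.9, 10.9 and 7.36 CPM in cluster 9. At 6 DAP no cell outside had 5 or more TCRR2 UMIs.

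Levels of both genes also varied among the BETL-like cells. These cells were clustered again without TCRR1, TCRR2, BETL9 and MRP1, a step added after the data had been seen, and 4 sub-clusters had at least 50 cells in every library. Sub-cluster 2 was led by genes that included Zm00001d024959, MYBR19, MYBR81 and MN1 (miniature seed1, a cell wall invertase that cleaves incoming sucrose). In it TCRR1 stood at 603, 497 and 425 CPM and TCRR2 at 896, 769 and 791 CPM, above the other 3 sub-clusters in every 7 DAP library.

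Sub-cluster 3 was the lowest of the 4 for TCRR1 in 2 of 3 libraries, with 87.3, 83.2 and 131 CPM, and MRP1 was lowest there in 3 of 3, at 38.0, 45.2 and 48.0 CPM against 308, 286 and 268 CPM in sub-cluster 2. TCRR2 did not share that place. It stood at 343, 358 and 415 CPM in sub-cluster 3 and at 278, 286 and 367 CPM in sub-cluster 1, where TCRR1 was at 145, 157 and 182 CPM. Sub-cluster 4, led by histone genes, had TCRR1 at 253, 204 and 93.6 CPM and TCRR2 at 511, 522 and 440 CPM. There were 0.23 to 0.32 TCRR1 UMIs per TCRR2 UMI in sub-cluster 3, 0.49 to 0.55 in sub-cluster 1 and 0.54 to 0.67 in sub-cluster 2. In sub-cluster 4 the ratio ran from 0.21 to 0.49, thus reaching below sub-cluster 3, with MRP1 at 104 to 149 CPM. Summed, the other 10 BETL markers averaged 84342 CPM in sub-cluster 3 and 138355 CPM in sub-cluster 2.

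**Figure D4:**
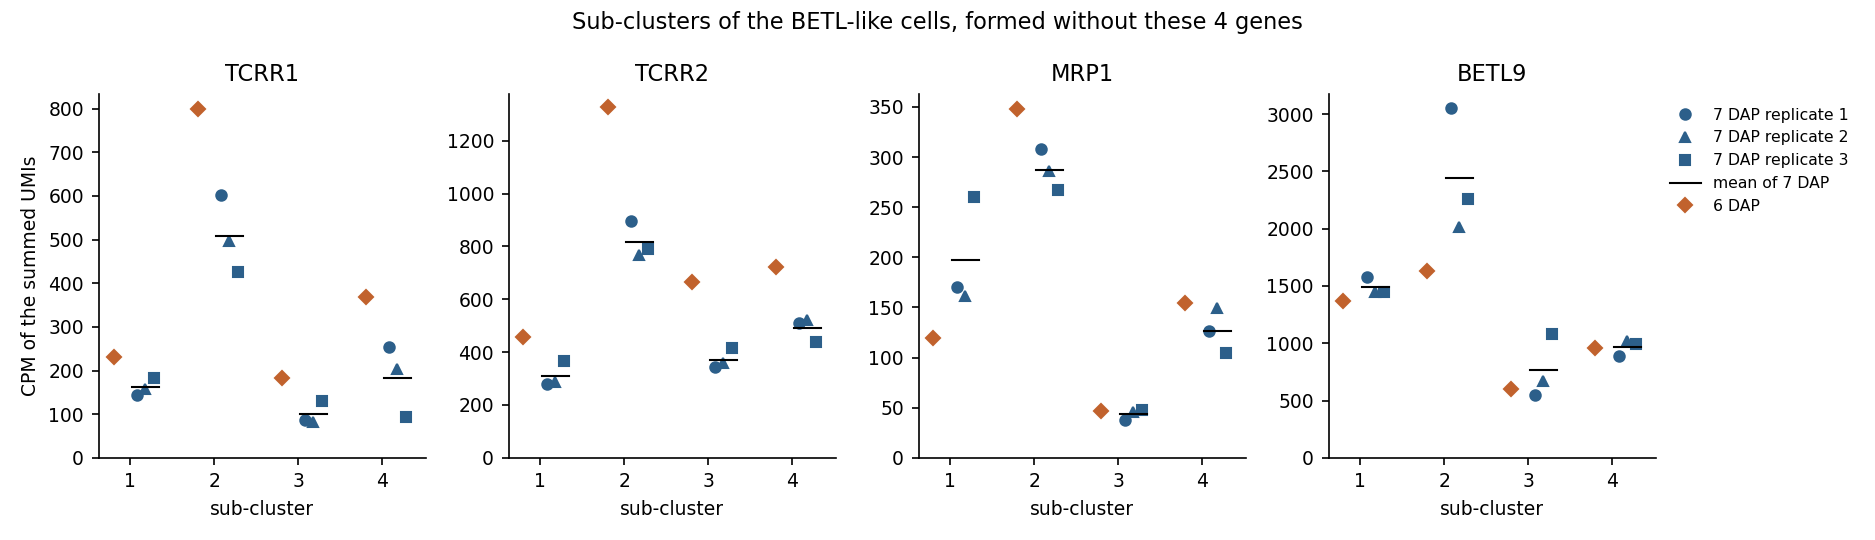
CPM of TCRR1, TCRR2, MRP1 and BETL9 in the 4 larger sub-clusters of BETL-like cells, formed without these genes; blue symbols are the 7 DAP libraries, bars their mean and orange diamonds the 6 DAP library. Sub-cluster 2 is highest for TCRR1 and TCRR2 in every library, and sub-cluster 3 has MRP1 at 38.0 to 48.0 CPM at 7 DAP with TCRR2 at 343 to 415 CPM.

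Cell by cell, TCRR1 was mostly found together with TCRR2, while TCRR2 was often found alone. At 7 DAP, 249, 266 and 290 cells held both genes, 82, 84 and 46 held TCRR1 only and 338, 378 and 301 held TCRR2 only. TCRR2 was thus found in 75.2%, 76.0% and 86.3% of the cells with TCRR1, and TCRR1 in 42.4%, 41.3% and 49.1% of the cells with TCRR2. If the genes were spread over all cells independently, 40.4, 46.3 and 45.3 cells would hold both. The odds ratio within bins of UMIs per cell (Mantel-Haenszel) was 35.2, 34.8 and 74.5. Cells are not replicates, so these values describe the libraries and carry no test.

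Much of the co-detection went with cell type. Inside the BETL-like cells, 238, 260 and 283 cells held both genes against 181, 213 and 240 by independence, with an odds ratio of 3.64, 3.36 and 4.78. Among the cells with BETL9 and MRP1, 138, 173 and 189 held both against 134, 162 and 186, with an odds ratio of 2.09, 5.14 and 1.93. Thinned to 1000 UMIs per cell, the odds ratio was 2.49, 1.72 and 2.61 inside the BETL-like cells and 1.20, 0.77 and 0.78 among the cells with BETL9 and MRP1, where 11, 6 and 11 cells held both against 10.5, 6.75 and 12.0. Among the cells with neither marker gene, 15, 7 and 12 held both against 1.56, 1.95 and 0.90. After thinning every cell to 1000 UMIs, TCRR2 was found in 42.1%, 38.5% and 46.0% of all cells with TCRR1.

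The cells with TCRR2 alone were poorer in the marker genes than those with both. A BETL9 or MRP1 UMI was present in 94.0%, 97.4% and 95.9% of cells with both response regulators, in 62.4%, 61.1% and 65.8% of cells with TCRR2 only and in 64.6%, 46.4% and 63.0% of cells with TCRR1 only. Cells with no UMI of either had a BETL9 or MRP1 UMI in 7.24%, 5.74% and 4.27%. MRP1 stood at 287, 294 and 316 CPM in the cells with both and at 57.2, 53.9 and 67.4 CPM in those with TCRR2 only. Median depth differed too, with 8947, 12443 and 12480 UMIs in the former and 5559, 8472 and 9755 in the latter, and its part was not tested.

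Likeness was measured as Pearson's r of log2(CPM + 1) over 42 sums, those of 14 clusters in 3 libraries, among 10101 genes. The 8 genes most like TCRR1 were Zm00001d042229, Zm00001d048633, Zm00001d007444, Zm00001d010632, Zm00001d027072, Zm00001d024615, MEG13 (a maternally expressed gene of the cysteine-rich peptide family) and Zm00001d019453, with r from 0.91 to 0.90. Of these, Zm00001d042229, Zm00001d024615 and MEG13 are also on the list of MRP1 targets. BETL9 ranked 16 with 0.89, MRP1 ranked 34 with 0.84 and TCRR2 ranked 46 with 0.79.

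The 8 genes most like TCRR2 were a different set: MYBR29 (a MYB-related transcription factor), Zm00001d053095, BAP2 (basal layer antifungal protein2), MEG3, Zm00001d048622, Zm00001d002276, gpm832 and Zm00001d021920, with r from 0.89 to 0.87. Of these, BAP2 is also on the list of MRP1 targets, and the study names MEG3 among reported targets of MRP1. The share of MRP1 targets among all genes compared was not counted. Membership of the list is therefore not read as a difference between the 2 sets. MRP1 ranked 38 with 0.81, BETL9 ranked 47 with 0.80 and TCRR1 ranked 48. The 42 sums share libraries and are dominated by the BETL-like cluster, so r is given without a p. Outside cluster 0 each sum held only 0 to 14 TCRR1 UMIs and 0 to 51 TCRR2 UMIs. The part of these low counts in the difference between the 2 sets was not tested. MEG genes are near-identical copies of a family, and how reads were divided among them is uncertain.

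The other genes of the transfer layer gave the setting for these values. Among the cells with BETL9 and MRP1 against those with neither, all 6 tested regulators named with MRP1 in the study were higher, beside 27.7% of all genes. Their median log2 difference was 7.79 against -0.06 for all genes. The regulators were MYBR81 (8.81), MYBR19 (8.53), MYBR33 (7.98), EREB150 (7.60), MYBR29 (6.52) and EREB108 (4.61), the EREB genes coding for AP2-type transcription factors. TCRR1 at 7.96 fell within this range near MYBR33, and TCRR2 at 6.34 fell near MYBR29. MN1 was higher by 9.03 and SWEET4C, a hexose transporter, by 3.00.

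All 22 tested MRP1 targets, TCRR1 among them, were higher, beside 27.7% of all genes, with a median of 7.60 and a range of 3.56 to 9.29. The highest were Zm00001d024619 (9.29), Zm00001d007470 (9.21), Zm00001d053114 (8.61), MEG13 (8.19) and Zm00001d024615 (8.14). In the narrower comparison of cells with both genes against cells with BETL9 only, the median of these targets was 0.95, with 20 of 22 higher (16 with DESeq2, and 9 of 21 after thinning), beside 9.11% of all genes, and Zm00001d045546 lower by -0.80. Zm00001d024620, at 0.19, did not pass. TCRR1 at 2.39 stood above that median, near MYBR33 (2.77) and Zm00001d007470 (2.30). The 6 regulators had a median of 2.93 there, and MN1 was at 3.91. TCRR2, at 1.26, lay near BETL3 (1.30), gpm832 (1.31) and EREB108 (1.31).

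Both tested phosphotransfer proteins, HP1 and HP3, were lower in the cells with BETL9 and MRP1, HP1 by a log2 difference of -2.45 (109 ± 40.3 CPM, SD, n = 3) and HP3 by -3.23 (31.9 ± 13.5 CPM), where 31.3% of all genes passed as lower. They were also lower than in the cells with BETL9 only, by -1.07 and -1.496, where 8.58% of all genes passed as lower, but neither passed after thinning to 1000 UMIs. Histidine kinase1 (Zm00001d017977), a cytokinin receptor family member, was lower than in the cells with neither by -1.12, at 11.9 ± 1.66 CPM. Histidine kinase2 and histidine kinase3 were too low to be tested.

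Of the 12 genes on the study's list for response to cytokinin, 7 were tested, of which 4 were higher and 1 lower, with a median of 0.60, beside 27.7% higher and 31.3% lower among all genes. The response regulators on this list all had smaller differences than TCRR1 and TCRR2. CRR1 was higher by 0.77 at 209 ± 5.05 CPM, cytokinin response regulator2 (Zm00001d026594) by 1.41 at 26.1 ± 2.72 CPM and cytokinin response regulator8 (Zm00001d028265) by 0.60. Cytokinin response regulator7 (Zm00001d050768) was higher by 3.38, but only at 2.97 ± 0.96 CPM. CRR5, at -0.31 (edgeR, adjusted p = 0.0517), and cytokinin response regulator4 (Zm00001d011849), at 0.30, did not pass. With library totals in place of TMM scaling, the median of all genes moved from -0.06 to -0.60, response regulator8 was at 0.06 and did not pass, response regulator4 was at -0.23 and did not pass, and CRR5 passed as lower at -0.85.

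On the list for cytokinin biosynthesis, 9 of 46 genes were tested, with 3 higher and 2 lower and a median of 0.61, shares of calls near those of all genes (27.7% higher, 31.3% lower). IPT2, isopentenyl transferase2 of the first step of cytokinin synthesis, was higher by 7.78, at 37.1 ± 4.27 CPM in the cells with BETL9 and MRP1, and by 2.30 against the cells with BETL9 only. Zm00001d019256 (3.98) and Zm00001d020418 (3.17) were also higher, and Zm00001d002707 (-0.83) and Zm00001d043692 (-0.42) were lower. Scaled by library totals, 3 genes of this list were higher and 3 lower. IPT7 was too low to be tested. IPT2 was thus the only tested gene of both cytokinin lists within the range of both response regulators.

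Markers of other cell types moved the other way against the cells with neither. In the cells with BETL9 and MRP1, 3 of 3 tested AL markers, 3 of 3 SE markers and 5 of 5 ESR markers (embryo-surrounding region) were lower. The 1 tested EAS marker (endosperm adjacent to the scutellum) was lower too, beside 31.3% of all genes. DESeq2 called only 1 of the 5 ESR markers. Against the cells with BETL9 only, 2 of 3 AL markers and 3 of 3 SE markers were lower, beside 8.58% of all genes. There 2 of 5 ESR markers were higher, beside 9.11% of all genes, and 3 were not called. Summed, the 4 AL markers stood at 10602 to 15783 CPM in the class with both genes and at 52920 to 53787 CPM in the class with neither. They stood at 13056 to 21871 CPM in the cells with BETL9 only and at 33316 to 41363 CPM in the cells with MRP1 only. AL transcripts were thus present in each class, 1 of the 4 AL markers being at 0 in all of them. The summed SE markers were at 74.2 to 142 CPM against 617 to 741 CPM, and the ESR markers at 21.3 to 467 CPM against 1812 to 2191 CPM. The part of these transcripts in the levels of TCRR1 and TCRR2 was not tested.

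The last question was age. In whole libraries, TCRR1 stood at 56.9, 52.2 and 51.3 CPM in the 7 DAP libraries and at 81.5 CPM at 6 DAP (95% Poisson interval 74.99 to 88.4, counting error only), a ratio of 1.52 to their mean. TCRR2 stood at 106, 104 and 117 CPM and, at 6 DAP, at 157 CPM (148 to 167), a ratio of 1.44. The 6 DAP value was above all 3 libraries of 7 DAP for both genes, as it was for 56.5% of the 9818 genes with a mean of at least 10 CPM. Neither gene passed the size rule, under which the 6 DAP library had to lie above every 7 DAP library, or below every one, by a factor of 2 or more. That rule was met by 0.835% of genes as higher and by 1.34% as lower. BETL-like cells were 18.1% of the cells at 6 DAP against 15.1% to 15.6% at 7 DAP. Their share of UMIs was smaller at 6 DAP than in each 7 DAP library. They held 1303087 of 7117959 UMIs at 6 DAP. In the 7 DAP libraries they held 4921238 of 25574646, 7491740 of 35365891 and 7182023 of 32435730 UMIs. The part of these shares in the whole-library ratios was not tested. BETL9 went the other way, with 245 CPM at 6 DAP and a ratio of 0.75, and MRP1 was at 36.1 CPM with a ratio of 0.91 that became 1.06 without the top 5% of cells by UMIs.

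Within the cells with BETL9 and MRP1, TCRR1 was at 841 CPM at 6 DAP (742 to 948) against 372 to 496 CPM at 7 DAP, and TCRR2 at 1251 CPM (1131 to 1381) against 665 to 673 CPM. The ratios to the mean were 1.92 and 1.87, and neither gene passed the size rule, which 8.33% of 8136 genes met as higher. In this class 58.8% of genes were above all 7 DAP libraries. BETL9 had a ratio of 0.82 and MRP1 of 1.78 in the same cells, but MRP1 sets the class, and the 6 DAP cells had a median of 2574 UMIs.

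Thinned to 1000 UMIs with classes set again, the ratios were 1.87 for TCRR1, 2.29 for TCRR2, 0.83 for BETL9 and 1.03 for MRP1, from 46 cells at 6 DAP. In the BETL-like clusters, formed without these genes, TCRR1 was at 431 CPM against 227 to 283 (ratio 1.72) and TCRR2 at 804 CPM against 468 to 509 (ratio 1.63), with BETL9 at 0.84 and MRP1 at 1.05. Both response regulators were above the 7 DAP range in each of these 4 ways of comparing ages, a place they shared with many genes. It was held by 56.5% of genes in whole libraries and 58.8% in the cells with BETL9 and MRP1. After thinning it was held by 2941 of 7914 genes in that class, and for the BETL-like clusters the share was not counted. With TMM scaling the ratios were 1.38 and 1.30 in whole libraries and 1.42 and 1.38 in the cells with BETL9 and MRP1.

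The difference was not the same in every class. Cells with BETL9 only had TCRR1 at 278 CPM at 6 DAP against 86.5 to 107 CPM (ratio 2.92), which met the size rule as did 2.18% of genes, and TCRR2 at 616 CPM against 289 to 344 CPM (ratio 1.93), which did not. After thinning to 1000 UMIs per cell the ratio of TCRR1 was 1.97 and it no longer met the rule. In the cells with MRP1 only, TCRR1 was at 475 CPM against 37.1 to 54.4 CPM (ratio 10.2) and TCRR2 at 906 CPM against 174 to 287 CPM (ratio 4.18), and both met the rule as did 9.1% of genes. That class differed in makeup between ages, with 30 of 39 cells in the BETL-like clusters at 6 DAP against 26 of 58, 50 of 89 and 40 of 75 at 7 DAP, and the part of this in the ratios was not tested. It held 44 UMIs of TCRR1 and 84 of TCRR2 at 6 DAP, and after thinning the ratios were 1.00 and 2.00 and neither met the rule. Among cells with neither marker gene, TCRR1 was at 10.1 CPM (ratio 3.94) and TCRR2 at 28.9 CPM (ratio 2.40). Only TCRR2 met the rule there, as did 0.831% of genes, since the mean of TCRR1 was under 10 CPM, and after thinning the ratios were 2.52 and 1.90 and the calls changed places, TCRR1 meeting the rule and TCRR2 not.

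The 6 DAP library had the same highest and lowest class as those of 7 DAP. Before thinning, MRP1 only lay above BETL9 only at 6 DAP for both genes, the reverse of their order in each 7 DAP library. After thinning, MRP1 only lay above BETL9 only in each 7 DAP library for both genes. Against the class with neither, TCRR1 then stood at 4.65, 5.21 and 4.95 on the log2 scale against 4.01, 4.27 and 4.63. TCRR2 stood at 3.59, 3.82 and 3.96 against 3.54, 3.64 and 3.77. At 6 DAP, MRP1 only then lay below BETL9 only for TCRR1 (3.61 against 3.95) and above it for TCRR2 (3.87 against 3.64). At 6 DAP without thinning, the class with both genes exceeded the class with neither by 83.3 times for TCRR1 and 43.3 for TCRR2. TCRR1 exceeded TCRR2 in this contrast by 0.95 on the log2 scale. Cells with both response regulators numbered 184 at 6 DAP, with 60 holding TCRR1 only and 221 TCRR2 only. TCRR2 was found in 75.4% of the cells with TCRR1, and TCRR1 in 45.4% of the cells with TCRR2 (Clopper-Pearson 95% intervals 69.5% to 80.7% and 40.5% to 50.4%).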

How the data were processed

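Protoplasts from B73 endosperm were sequenced in 4 droplet libraries (1 at 6 DAP, 3 at 7 DAP), and the UMI counts per gene and barcode were made with Cell Ranger 4.0.0 and deposited by the authors as filtered matrices. Barcodes with 500 to 7500 genes, at least 1000 UMIs and a ratio of log genes to log UMIs of at least 0.8 were kept here, a reading of the study's filter, leaving 17212 cells. No doublet caller was run, and no correction for free RNA was made.

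UMIs were summed per class and library (3 libraries of 7 DAP) and tested with edgeR 4.0.16 (quasi-likelihood, TMM, filterByExpr) with library as a block, since each library gave every class from the same cell suspension. Benjamini-Hochberg adjustment covered 15178 genes at 0.05. BETL9 and MRP1, which set the classes, were given no test. Clusters came from scanpy 1.11.5 and leidenalg 0.10.2 (2000 variable genes, 50 components, 20 neighbours, resolution 0.75). Alternatives were DESeq2 1.42.0, scaling by totals, no filter, no block, other class cutoffs, all barcodes, thinning to 1000 UMIs per cell, removal of the top 5% of cells by UMIs and leaving out each library. The edgeR step was tested on simulated data.

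The genes named were TCRR1, TCRR2, BETL9 and MRP1, the listed regulators, transporters and phosphotransfer proteins, the cytokinin genes with symbols, up to 5 highest and 3 lowest passing genes of the MRP1 target and cytokinin lists, and the 8 genes most like TCRR1 or TCRR2. The members and lists were chosen with earlier results of these data known. Intervals cover counting error only. No gene sequence or position was used here.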

Additional observations from a re-analysis of the deposited data

Results flagged for a closer look

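Barcodes removed by the cell filter, used only where all barcodes were tried as an alternative, still held UMIs of both genes. TCRR1 had 43 UMIs there at 6 DAP and 27, 41 and 74 in 7 DAP replicates 1, 2 and 3, and TCRR2 had 121 UMIs at 6 DAP and 57, 55 and 87 at 7 DAP, each above the 3 counts that a count of 0 allows. These barcodes numbered 1486 at 6 DAP and 1020, 1047 and 889 at 7 DAP, with a median of 671 to 773 UMIs. At 7 DAP they held 1.82%, 2.17% and 4.26% of the deposited TCRR1 UMIs and 2.07%, 1.47% and 2.24% of the TCRR2 UMIs, with 4.42%, 3.74% and 3.90% of all UMIs. BETL9 took a larger share there, with 7.80%, 6.67% and 6.15%. The level of TCRR1 in them was 22.8, 29.8 and 56.2 CPM, that of TCRR2 48.2, 40.0 and 66.1 CPM and that of BETL9 617, 541 and 556 CPM.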

How the results depend on the processing

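In each of 12 alternatives, TCRR1 and TCRR2 kept their direction and passed the test in all 4 comparisons of classes. Over these alternatives the log2 difference between cells with BETL9 and MRP1 and cells with neither was 6.03 to 8.05 for TCRR1 and 4.77 to 6.43 for TCRR2, and against cells with BETL9 only it was 1.45 to 2.46 and 0.79 to 1.33, with a largest adjusted p of 0.00343 (edgeR). Of 193 values recomputed, 162 stayed close and 31 moved. Counts of genes passing moved more. They were 8969, 2684 (both genes against BETL9 only), 2910 (MRP1 only against neither) and 6472 (BETL9 only against neither), and after thinning, where 3400 genes were tested, 924, 72, 423 and 1467. With BETL9 at 1000 CPM or more the counts were 896 for both genes against BETL9 only and 6162 for MRP1 only against neither. Leaving out a replicate gave 1354 to 2124 for the former comparison, lowest without replicate 2, and 1062 to 3169 for the latter, with 1062 without replicate 2 and 1499 without replicate 3. Without the replicate block the counts were 8681, 2284, 2372 and 6043, and no call of TCRR1 or TCRR2 changed.

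Scaling by totals in place of TMM turned the balance of calls. In the first comparison 1707 genes were then higher and 9669 lower, in place of 4211 and 4758, with TCRR1 at 7.42 and TCRR2 at 5.80. In the others the splits were 695 and 2780 (1382 and 1302 with TMM), 1032 and 2057 (1714 and 1196) and 1420 and 7717 (3202 and 3270). For MRP1 only against neither DESeq2 gave 1868 and 811 and no filter gave 1204 and 1502, and thinning gave 62 and 10 for both genes against BETL9 only.

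No paired analysis was possible between ages because 6 DAP and 7 DAP share only replicate number 1. The log2 ratio of 6 to 7 DAP in whole libraries (0.61 for TCRR1, 0.53 for TCRR2) was 0.46 and 0.38 with TMM, 0.94 and 0.80 without the top 5% of cells, and 0.52 for TCRR1 over all barcodes. In cells with BETL9 and MRP1 (0.94 and 0.90) it was 0.50 and 0.46 with TMM and 0.74 and 0.95 with BETL9 at 1000 CPM or more. For TCRR2 it was also 0.89 over all barcodes, 0.98 without the top cells, 1.20 after thinning and 0.70 in BETL-like clusters. The mean share of TCRR1 cells with TCRR2 at 7 DAP (79.2%) was 42.2% after thinning and 92.7% among cells with BETL9 and MRP1, that of TCRR2 cells with TCRR1 (44.3%) was 22.0% and 75.003%, and the odds ratio (48.2) was 16.6 and 3.05. TCRR2 in BETL-like cells (494 CPM) was 466 and 467 CPM at resolutions 0.5 and 1.0. With Spearman's rho in place of Pearson's r, 5 of the 8 genes most like TCRR1 were shared, and 8 of 8 for TCRR2. The causes of these moves were not tested, apart from the fewer genes and UMIs that thinning leaves. Depth limits the smallest classes (39 cells with MRP1 only at 6 DAP), and the single 6 DAP library has no spread of its own.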
